A study of Homo sapiens with 6 samples.

Results

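Messages for the nuclear-encoded subunits of the mitochondrial respiratory chain were followed across 6 RNA sequencing libraries. All come from HCT116, a long-established line of human colon cancer cells. Members were chosen by symbol. The rule took the families NDUFA, NDUFB, NDUFC, NDUFS and NDUFV without the assembly factors named NDUFAF, the families UQCR, COX4 to COX8 and ATP5, and the 4 SDH subunits. It found 89 members among 19942 gene symbols. NDUFV2, a core subunit of complex I, is outside the rule, and CYC1, a subunit of complex III, does not carry a family name that it covers. By the complex to which each product belongs, 36 members fall to complex I, 4 to complex II, 8 to complex III, 19 to complex IV and 18 to complex V, and 4 are copies or readthrough genes of a member.

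The cells were either resistant to 5-fluorouracil (5-FU), a pyrimidine analogue used against colorectal cancer, or wild-type, called parental here. Each kind was given an siRNA against EHMT2, given a control siRNA, or left without any siRNA named in its labels, called untransfected here. EHMT2 encodes G9a, a histone methyltransferase that places repressive methyl groups on lysine 9 of histone H3. The sources used here do not say whether the resistant cells are 1 clone, which drug dose they were kept in, or how many siRNA sequences were used. The 6 groups are resistant cells with EHMT2 siRNA, with control siRNA and untransfected, and parental cells with the same 3 treatments. Each group holds 1 library, so a ratio between a pair of libraries has no replicate check and is given without a p-value.

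The respiratory chain passes electrons from NADH (complex I) and succinate (complex II) through ubiquinone, complex III and cytochrome c to complex IV, which reduces oxygen. Complexes I, III and IV pump protons across the inner mitochondrial membrane, and complex V, the ATP synthase, uses the proton gradient to make ATP. Apart from complex II, which is wholly nuclear-encoded, the complexes combine subunits from the nucleus with core subunits encoded in mitochondrial DNA, and many nuclear subunits are small accessory proteins that are needed for assembly or stability rather than for catalysis. The transcription factors NRF1, GABP (an ETS family factor) and YY1 are known to bind promoters of many of these genes.

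Values are FPKM as deposited, the fragments mapped to a gene scaled by transcript length and by all mapped fragments of the library. FPKM summed to between 360695 and 446143 per library. Without read counts, neither the depth nor the counting error of a value is known. EHMT2 itself was at 3.80 FPKM with EHMT2 siRNA against 19.5 FPKM with control siRNA in resistant cells, and at 8.58 against 31.7 FPKM in parental cells. Of 7 markers of colorectal epithelium, 5 were at 1 FPKM or more (EPCAM, CDH1, KRT8, KRT18 and KRT19), summing to between 2178 and 2560 FPKM in resistant libraries and between 1639 and 2364 FPKM in parental libraries, and CDX1 and VIL1 were listed at 0 in all 6 libraries. Within that sum KRT18 and KRT19 had ratios of opposite sign: KRT19 was at 202 FPKM with EHMT2 siRNA against 720 FPKM with control siRNA in resistant cells and at 175 against 496 FPKM in parental cells, and KRT18 at 1053 against 602 FPKM and at 997 against 469 FPKM, with no test of their part in the results. Of 8 markers of other cell types, COL1A1, CD68 and DES were measured, summing to between 7.06 and 10.2 FPKM in resistant and between 7.66 and 11.4 FPKM in parental libraries, and PTPRC, CD3E, COL1A2, PECAM1 and VWF were listed at 0. Subunits encoded in mitochondrial DNA took between 9.74% (resistant, control siRNA) and 26.2% (parental, untransfected) of all FPKM. Since FPKM is relative to the library total, a change in this share can shift every ratio below. Medians and counts after scaling to the same sum outside mitochondrial DNA are given further on. The part of this share in the ratios was not tested. In RNA from bulk culture, less RNA per cell and fewer cells of a kind cannot be told apart.

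Respiratory chain messages were abundant in every library. Of the 89 members, 81 reached 1 FPKM in at least 1 library, 79 did so in all 6, and 70 were at 10 FPKM or more in all 6. The highest mean levels were those of COX4I1, the common isoform of complex IV subunit 4 (352 FPKM), ATP5F1B, the catalytic beta subunit of ATP synthase (337 FPKM), and UQCRH, the hinge protein of complex III (284 FPKM). COX4I1 was at 466, 389 and 338 FPKM in resistant cells (EHMT2 siRNA, control siRNA, untransfected) and 286, 303 and 327 FPKM in parental cells with the same treatments. All 3 resistant values lie above all 3 parental values, as they do for 2.89% of all genes, but the untransfected values are close. The log2 ratio of resistant over parental cells with control siRNA was 0.36 as deposited and -0.01 with quantile normalisation.

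Levels were stable for some members and not for others. The ratio of the highest to the lowest library was 1.15 for NDUFA8 and 1.19 for COX6B1, and its median was 1.81 over the 81 measured members. The largest ratios among members at 1 FPKM or more in every library were 3.63 for the readthrough gene ATP5MF-PTCD1, 3.50 for NDUFB11, 3.29 for NDUFB4 and 3.18 for UQCR10. NDUFB11, NDUFB4 and UQCR10 are also the members with the largest mean EHMT2 siRNA ratios in size, described next. Both measures use the same libraries, so this is not a separate observation.

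Complex IV has tissue isoforms, and the cells expressed the common ones. COX4I1, COX6A1, COX6B1, COX7A2, COX7B and COX8A were at 32.7 FPKM or more in every library. Their counterparts COX4I2, COX6A2, COX7A1, COX7B2 and COX8C, known from lung, heart, muscle or testis, were listed at 0 in all 6 libraries, as was ATP5MGL, a copy of an ATP synthase subunit gene. COX6B2, the testis form of COX6B1, was between 0 and 0.859 FPKM, and UQCRHL, a copy of UQCRH, between 0.273 and 0.949 FPKM. NDUFA4L2, a relative of NDUFA4 known to be induced by hypoxia, was at 1.29, 0.896 and 0.256 FPKM in resistant cells (EHMT2 siRNA, control siRNA, untransfected) and at 0, 0.420 and 1.15 FPKM in parental cells, close to the limit of 1 FPKM used here.

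With EHMT2 siRNA, most subunit messages were slightly higher than with control siRNA in both lines, and a few stood apart in either direction. UQCR10 of complex III, SDHC of complex II and NDUFA4 of complex IV were among the highest, while NDUFB4 and NDUFB11, accessory subunits of complex I, were at 28.6% to 38.1% of the control siRNA level. The median log2 ratio of FPKM + 1 was 0.27 over 81 members in resistant cells, beside 0.06 over 11750 genes, and 0.23 over 80 members in parental cells, beside 0.09 over 11948 genes. A member was counted when it was at least 1.5-fold apart. In resistant cells 16 of 81 members were higher by that measure, against a background of 16.2% of all genes, and 6 were lower, against 13.4%. In parental cells 14 of 80 were higher, against 20.2%, and 3 were lower, against 12.8%. The shares of members higher, 19.8% and 17.5%, lie near the background, and the shares of members lower, 7.41% and 3.75%, lie under it.

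Read across both lines, 50 of 80 members were above 0 in each (62.5%, against 46.2% of all genes) and 19 were below 0 in each (23.8%, against 36.3%). Past 1.5-fold in both lines were 12 members that were higher (15.0%, against 12.0% of all genes): UQCR10, SDHC, NDUFA3, NDUFA4, ATP5MPL, UQCR11, NDUFA1, NDUFA11, ATP5MG, NDUFAB1, COX6A1 and NDUFS5. Only NDUFB4 and NDUFB11 were lower by 1.5-fold in both (2.5%, against 8.93% of all genes). Across members, the ratios of the lines had a Pearson r of 0.74 (n = 80), beside 0.83 over 11545 genes; the points within a line share both of its libraries.

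The counts depended on the scaling. With all libraries set to the same summed FPKM, 73.0% of all calls in parental cells were in the higher direction instead of 61.3%, and 22 of 80 members were higher (27.5%, against 25.7% of all genes). With quantile normalisation that share was 50.4%. In resistant cells it was 54.8% as deposited and 66.1% after scaling to the same sum outside mitochondrial DNA. That scaling moved the all-gene median to 0.15 in resistant cells, and the same-sum scaling moved it to 0.20 in parental cells. The median of members minus that of all genes stayed between 0.17 and 0.21 in resistant cells and between 0.13 and 0.20 in parental cells under these scalings.

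**Figure D1:**
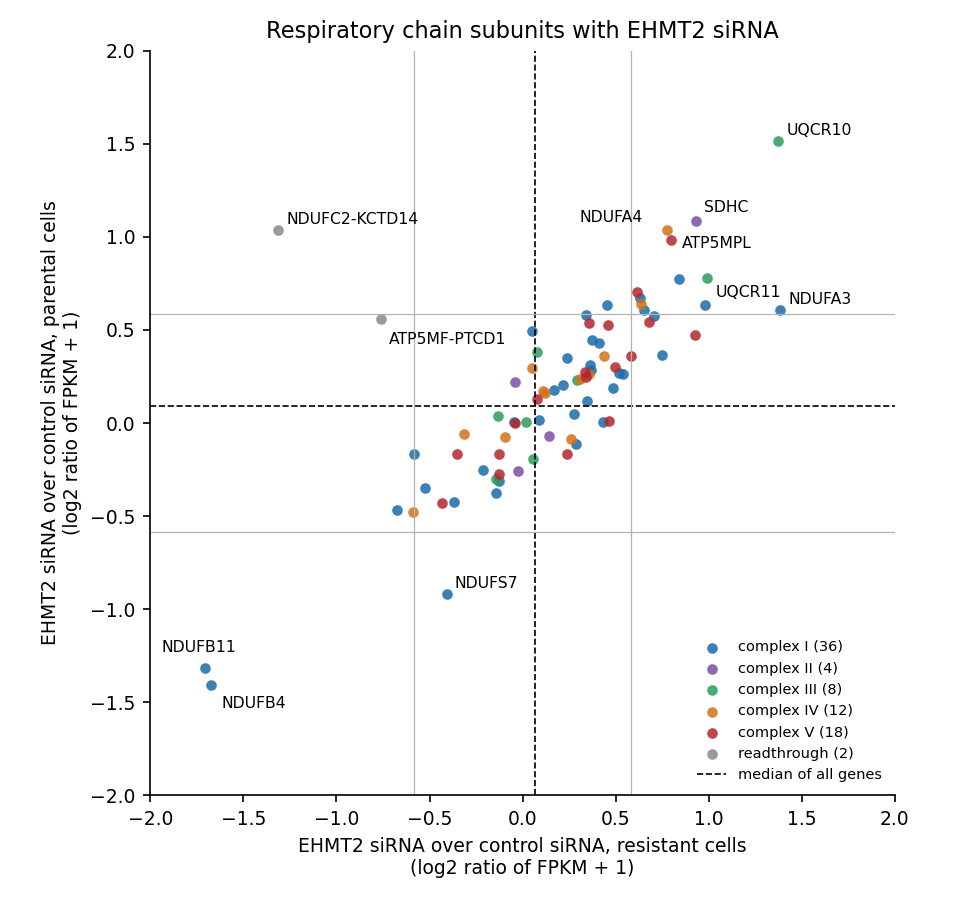
Log2 ratio of FPKM + 1, EHMT2 siRNA over control siRNA, in resistant cells (x axis) and in parental cells (y axis), 1 point for each of 80 members at 1 FPKM or more in at least 1 library of both pairs, coloured by complex. Dashed lines are the medians of all genes (0.06 and 0.09) and grey lines mark 1.5-fold; NDUFB4 and NDUFB11 lie alone at the lower left, and UQCR10 lies farthest to the upper right.

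The additive limma model of line and treatment over all 6 libraries leaves 2 residual degrees of freedom, so its error comes from the departure from additivity. limma moderates that error for each gene toward a mean-variance trend over all genes. At a Benjamini-Hochberg adjusted p under 0.05 it called 0 of 80 members and 0 of 11521 genes for EHMT2 siRNA in either direction (0.0% of all genes). At an unadjusted p under 0.05 there were 20 members, 16 of them higher and 4 lower; 26.6% of all genes passed that limit. The lowest adjusted p among members in this limma fit was 0.0529, for NDUFB4 (log2 change -1.54, SE 0.21), NDUFB11 (-1.51, SE 0.19) and UQCR10 (1.45, SE 0.20), lower or higher in both lines each. That value was also the lowest adjusted p over all 11521 genes in this limma fit, so it does not single out these members. The targeted gene EHMT2 reached an adjusted p of 0.0636 in the same limma fit.

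Restricted to the 4 siRNA libraries, with 1 residual degree of freedom, limma made calls. There 28 of 80 members rose and 8 fell, against 24.3% of 11182 genes that rose and 19.0% that fell; the members' shares were 35.0% and 10.0%. All calls named as rising or falling in the following come from this fit with limma, which was an alternative, and none of them passed in the 6-library fit. Leaving out either untransfected library gave the same counts, 28 and 8, since the other untransfected library is then fitted exactly, and leaving out any siRNA library gave 0 calls.

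Complex I held the only members that were past 2-fold lower in both lines. NDUFB4, an accessory subunit of the membrane arm, was at 22.1, 72.6 and 65.3 FPKM in resistant cells with EHMT2 siRNA, with control siRNA and untransfected, and at 26.6, 72.3 and 50.3 FPKM in parental cells. The EHMT2 siRNA library was the lowest of its line in both cases, and both lie below the other 4 libraries. The log2 ratios against control siRNA were -1.67 in resistant and -1.41 in parental cells, and limma on the 4 siRNA libraries gave an adjusted p of 0.000503. NDUFB4 (ENSG00000065518, chr3:120596309-120602500, plus strand, GRCh38, GENCODE 29) has 12 annotated pseudogenes, to which the counting could have assigned reads.

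NDUFB11, another membrane arm accessory subunit, encoded on the X chromosome, was at 9.82, 34.3 and 29.5 FPKM in resistant cells with EHMT2 siRNA, with control siRNA and untransfected, and at 11.5, 30.1 and 25.7 FPKM in parental cells. Again both EHMT2 siRNA libraries lie below the other 4. The log2 ratios were -1.71 and -1.32, with an adjusted p of 0.000651 in limma on the 4 siRNA libraries. NDUFB11 shares 44.9% of its exonic bases with RBM10 on the opposite strand, and the sources used here do not give the strand setting. For RBM10, an RNA-binding splicing regulator, the EHMT2 siRNA ratio was -0.04 in resistant cells and -0.20 in parental cells.

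The other accessory subunits of complex I went both ways. NDUFA3, a membrane arm subunit, was at 84.6, 31.8 and 41.4 FPKM in resistant cells with EHMT2 siRNA, with control siRNA and untransfected, and at 66.9, 43.7 and 32.2 FPKM in parental cells, with both EHMT2 siRNA libraries above the others. Its ratios were 1.38 and 0.61, and the gap of 0.78 between the lines, the widest among members at 5 FPKM or more, was not tested. NDUFA1 rose (0.81, SE 0.13), though 44.5% of its exonic bases are shared with RNF113A on the opposite strand. NDUFA11 also rose (0.81, SE 0.11), as did NDUFAB1, the mitochondrial acyl carrier protein (0.65, SE 0.11), NDUFB3 (0.64, SE 0.11) and NDUFS5 (0.63, SE 0.12). NDUFA5, a subunit of the matrix arm, fell with ratios of -0.68 and -0.47 (adjusted p of 0.0107, limma, 4 siRNA libraries); it has 12 annotated pseudogenes. NDUFB5 (-0.44) and NDUFA13 (-0.40) fell as well, and for NDUFB5 the 6-library fit without the resistant control siRNA library gave 0.0013.

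The core subunits of complex I, which carry the flavin and iron-sulfur clusters, differed from each other. NDUFS7, which holds the cluster next to ubiquinone, was at 9.80, 13.3 and 15.1 FPKM in resistant cells with EHMT2 siRNA, with control siRNA and untransfected, and at 7.18, 14.5 and 13.3 FPKM in parental cells. Its ratios were -0.41 and -0.92, and it fell by 0.66 on the log2 scale (adjusted p of 0.0144, limma, 4 siRNA libraries); 49.1% of its exonic bases are shared with genes on the opposite strand. NDUFS8 rose by 0.40 with ratios of 0.54 and 0.26. NDUFS1 (0.17 and 0.18), NDUFS3 (0.43 and 0.01) and NDUFV1 (-0.14 and -0.38) did not pass. Over all of complex I, 14 of 36 subunits rose (38.9%, against 24.3% of all genes) and 6 fell (16.7%, against 19.0%).

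In complex II, succinate dehydrogenase, 1 of 4 subunits passed, a share near that of all genes that rose (24.3%). SDHC, a membrane anchor that binds heme and ubiquinone, was at 13.3, 6.51 and 6.11 FPKM in resistant cells with EHMT2 siRNA, with control siRNA and untransfected, and at 14.4, 6.24 and 5.19 FPKM in parental cells. Both EHMT2 siRNA libraries were above the other 4. The ratios were 0.93 and 1.09, and limma on the 4 siRNA libraries gave 1.01 (SE 0.13, adjusted p of 0.00175). SDHA, the flavoprotein (0.14 and -0.07), SDHB, the iron-sulfur subunit (-0.03 and -0.26), and SDHD, the other membrane anchor (-0.04 and 0.22), did not pass.

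Complex III contained the member with the highest ratios. UQCR10, a small accessory subunit, was at 93.2, 35.3 and 54.9 FPKM in resistant cells with EHMT2 siRNA, with control siRNA and untransfected, and at 85.6, 29.3 and 35.3 FPKM in parental cells. The lowest EHMT2 siRNA value, 85.6 FPKM, lies above the highest of the other 4, 54.9 FPKM. Ratios were 1.37 and 1.52, and limma on the 4 siRNA libraries gave 1.45 (SE 0.11, adjusted p of 0.000503). UQCR11, also a small accessory subunit, was at 67.4, 33.4 and 38.9 FPKM in resistant cells and at 53.8, 31.0 and 37.3 FPKM in parental cells, in the same order of treatments, and rose by 0.88 (SE 0.12). The catalytic Rieske protein UQCRFS1 (-0.14 and -0.30) and the core proteins UQCRC1 (0.02 and 0.01) and UQCRC2 (-0.13 and 0.04) did not pass.

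Of complex IV, 3 of 12 subunits rose, a share near the 24.3% of all genes, and 1 fell (8.33%, against 19.0% of all genes). NDUFA4, first assigned to complex I and now counted as a complex IV subunit, was at 33.9, 19.4 and 22.4 FPKM in resistant cells with EHMT2 siRNA, with control siRNA and untransfected, and at 29.6, 13.9 and 16.6 FPKM in parental cells, so that both EHMT2 siRNA libraries were above the others (0.91, SE 0.12, adjusted p of 0.00200, limma, 4 siRNA libraries). COX6A1, the non-muscle form of its subunit, rose by 0.64, yet its highest value, 318 FPKM, was in untransfected resistant cells, above both EHMT2 siRNA libraries (299 and 244 FPKM). COX7A2 rose by 0.40. COX7A2L, a relative of COX7A2 that joins complexes III and IV into supercomplexes, was at 19.5, 29.9 and 21.3 FPKM in resistant cells with EHMT2 siRNA, with control siRNA and untransfected, and at 14.1, 20.0 and 26.1 FPKM in parental cells. It fell by 0.53 on the log2 scale, with ratios of -0.59 and -0.48.

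Of the ATP synthase, 8 of 18 members rose (44.4%, against 24.3% of all genes) and 1 fell (5.56%, against 19.0%). The membrane part with its ring and the peripheral stalk, which holds the catalytic head in place, have 12 members here. Of these, ATP5MPL (0.89, SE 0.11), ATP5MF (0.70, SE 0.15), ATP5MG (0.66, SE 0.11), ATP5PF (0.61, SE 0.11), ATP5MD (0.49, SE 0.11) and ATP5PB (0.40, SE 0.12) rose. ATP5ME (0.31), ATP5PD (-0.02) and ATP5PO (-0.15) did not pass. ATP5MPL, a small membrane subunit, was at 86.5, 49.4 and 72.4 FPKM in resistant cells with EHMT2 siRNA, with control siRNA and untransfected, and at 81.6, 40.7 and 57.3 FPKM in parental cells. For ATP5MPL the control siRNA library was thus the lowest of each line, and the EHMT2 siRNA library was the highest. ATP5F1E (0.47) and ATP5F1C, the rotating gamma subunit (0.45), rose among the 5 F1 subunits. The other F1 subunits did not pass: ATP5F1A, the alpha subunit (0.34 and 0.25), ATP5F1B (-0.35 and -0.17) and ATP5F1D (-0.13 and -0.28). ATP5IF1, the inhibitor that stops ATP hydrolysis by the enzyme, had a ratio of 0.47 in resistant cells and 0.01 in parental cells. ATP5MC2, 1 of 3 genes for the same mature c-ring subunit, fell by 0.43, with ratios of -0.43 and -0.43, while ATP5MC1 (0.24 and -0.17) and ATP5MC3 (0.08 and 0.13) did not pass.

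**Figure D2:**
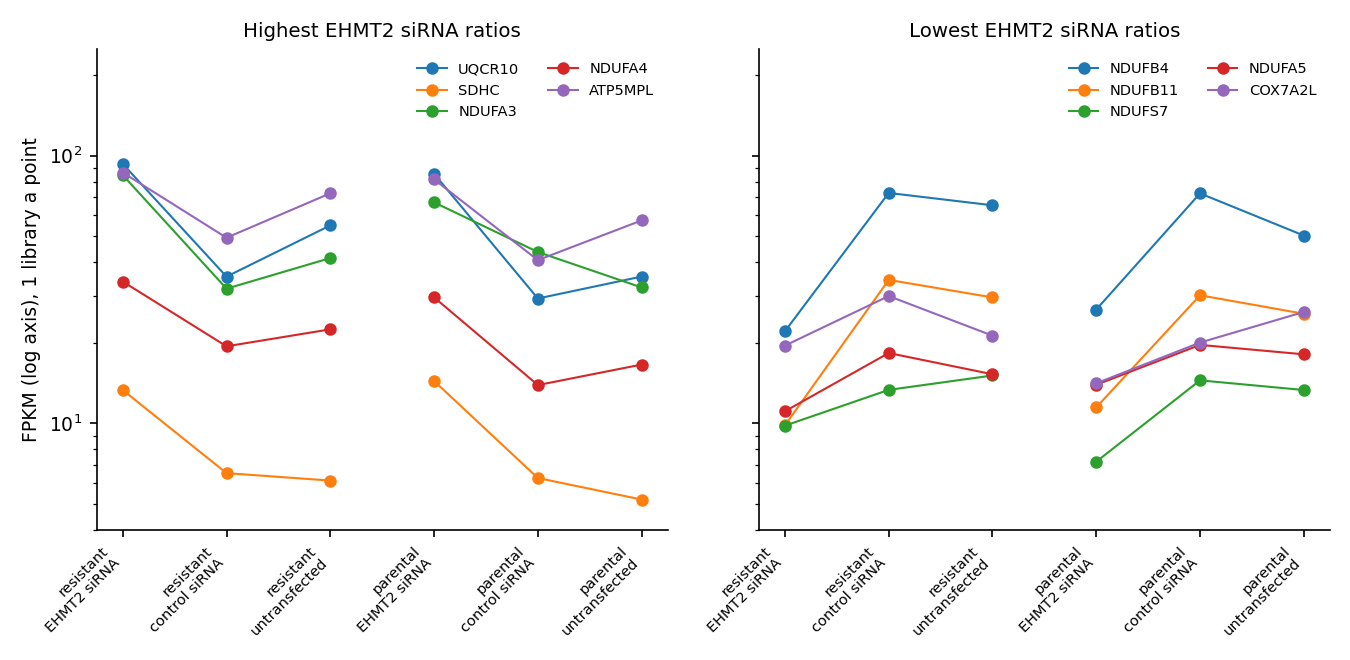
FPKM on a log axis in the 6 libraries, 1 library a point, for the 5 members with the highest mean EHMT2 siRNA ratio (left) and the 5 with the lowest (right) by the naming rule; lines join the libraries of a line of cells. The EHMT2 siRNA library is the highest of its line for all 5 members on the left and the lowest of its line for all 5 on the right.

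Set against all 4 other libraries, both EHMT2 siRNA libraries were above them for 31 of 80 members (38.8%, against 24.6% of all genes) and below them for 6 (7.5%, against 18.0%). The 6 were COX7A2L, NDUFA13, NDUFA5, NDUFB11, NDUFB4 and NDUFS7. These counts use the untransfected libraries, which the pair ratios do not. The 2 readthrough genes with measured values went opposite ways in the lines: NDUFC2-KCTD14 had ratios of -1.32 and 1.04, and ATP5MF-PTCD1 -0.76 and 0.56. They share 100% and 93.8% of their exonic bases with the genes they join, and were at 4.37 FPKM or less.

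Promoters are shown for 3 members, 1 that fell and 2 of complex III that rose, to let the flanks of genes that moved in opposite directions be compared; they were chosen after their values were seen. Sequences are the 250 bases before the start of each gene in RefSeq, build GRCh38.p14, on the strand of the gene. Capitals mark matches, on either strand, to the NRF1 motif, which is GCGCA and GCGC around 1 free base, and to CCGGAAG (the ETS motif bound by GABP).
NDUFB4: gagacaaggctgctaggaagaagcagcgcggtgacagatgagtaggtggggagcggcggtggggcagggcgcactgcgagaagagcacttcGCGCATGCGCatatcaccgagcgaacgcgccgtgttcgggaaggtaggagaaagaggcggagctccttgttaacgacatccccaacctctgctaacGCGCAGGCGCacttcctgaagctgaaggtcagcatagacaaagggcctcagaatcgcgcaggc
UQCR10: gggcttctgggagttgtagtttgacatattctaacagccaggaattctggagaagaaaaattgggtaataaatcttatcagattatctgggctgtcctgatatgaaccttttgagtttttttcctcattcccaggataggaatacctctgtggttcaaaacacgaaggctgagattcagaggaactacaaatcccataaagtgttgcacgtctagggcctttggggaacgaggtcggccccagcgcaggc
UQCR11: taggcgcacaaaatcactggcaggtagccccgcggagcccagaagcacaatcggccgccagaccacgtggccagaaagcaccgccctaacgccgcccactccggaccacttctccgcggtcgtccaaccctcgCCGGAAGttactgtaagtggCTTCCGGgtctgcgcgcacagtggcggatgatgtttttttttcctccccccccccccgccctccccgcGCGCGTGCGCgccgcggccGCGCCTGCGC

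These stretches are chr3:120596086-120596335 (plus strand) for NDUFB4, chr22:29767119-29767368 (plus strand) for UQCR10 and chr19:1605463-1605712 (minus strand) for UQCR11. NDUFB4 has 3 NRF1 matches in the window of 250 bases before to 50 after the start, and UQCR10 has 1; for both genes the match nearest the start runs across it and so stands in lower case at the 3′ end. UQCR10 also has a match to AANATGGCG, the YY1 motif, past its start. UQCR11 has 2 NRF1 and 2 ETS matches. NDUFB11 has no match to any of the 3 motifs. NDUFB4 and UQCR10, whose EHMT2 siRNA ratios were of opposite sign, both have a match to the NRF1 motif at the start. Whether a match goes with the direction of a ratio was not tested.

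Of the 89 members, 68 had an entry in the RefSeq promoter table, 64 of them at 1 FPKM or more in any library; SDHC and NDUFA4 had none. NRF1 matches were present in 23.4% of these 64 promoters, against 12.0% of 9662 promoters of genes at 1 FPKM or more. ETS matches were present in 29.7%, against 19.8%, and YY1 matches in 23.4%, against 7.11%. The motifs were searched on both strands, and ends of different motifs may overlap. The median EHMT2 siRNA ratio in resistant cells was 0.41 over 15 members with a YY1 match and 0.24 over 49 without, and in parental cells 0.26 and 0.21. For NRF1 the medians were 0.33 over 15 members with a match and 0.26 over 49 without in resistant cells, and 0.28 and 0.19 in parental cells. For ETS they were 0.30 over 19 with a match and 0.24 over 45 without, and 0.22 and 0.21 in parental cells. A match is a description of the letters, and these medians were not tested.

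Between resistant and parental cells, the members past 1.5-fold were most numerous in the untransfected pair, as were all genes past that limit. In that pair UQCRQ, NDUFB6, NDUFS6 and NDUFC1 were higher and NDUFB5 and ATP5MC2 lower in resistant cells. In untransfected cells, the median ratio was 0.25 over 81 members, beside 0.07 over 11731 genes. There 11 members were higher by 1.5-fold (13.6%, near the background of 11.8%), and 3 were lower (3.7%, against 10.0%). With control siRNA the median was 0.09, beside -0.02 for all genes; 1 of 80 was higher, against 6.49%, and 0 were lower, against 5.52%. With EHMT2 siRNA it was 0.12, beside -0.05; 2 of 81 were higher, against 5.99%, and 3 lower, against 9.5%. Past 1.5-fold in all 3 pairs, 0 of 80 members were higher, against 0.508% of all genes, and 0 were lower, against 0.249%.

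With either siRNA, the sign of the median depended on the scaling. Quantile normalisation gave -0.0043 with EHMT2 siRNA and -0.01 with control siRNA, and scaling to the same sum outside mitochondrial DNA gave -0.01 with EHMT2 siRNA and -0.09 with control siRNA. In untransfected cells the median stayed above 0, at 0.21 with quantile normalisation, 0.34 with scaling outside mitochondrial DNA and 0.49 with the same-sum scaling, which moved the all-gene median to 0.28. The share of all calls that were higher in resistant cells was 54.2%, 54.0% and 38.7% for untransfected, control siRNA and EHMT2 siRNA pairs as deposited, 64.9%, 24.4% and 21.1% with scaling outside mitochondrial DNA, and 78.4%, 57.5% and 32.7% with the same-sum scaling. Quantile normalisation gave 48.9% in the EHMT2 siRNA pair.

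Across the 3 treatments, 29 of 80 members were above 0 in every line pair (36.2%, against 14.1% of all genes) and 3 were below 0 in every pair (3.75%, against 12.4%), namely NDUFA5, NDUFB2 and NDUFS1. These counts are as deposited and were not made under other scalings. With quantile normalisation, the median of members minus that of all genes was 0.0039 with EHMT2 siRNA, 0.0021 with control siRNA and 0.20 untransfected. All 8 complex III subunits were above 0 in both siRNA pairs, with medians of 0.19 with EHMT2 siRNA and 0.16 with control siRNA, but scaling outside mitochondrial DNA left 5 and 3 of 8, and quantile normalisation 5 and 5. Complex IV subunits were above 0 in 10 of 13 with EHMT2 siRNA and 12 of 12 with control siRNA. Scaling outside mitochondrial DNA left 10 and 9, and quantile normalisation 9 and 10. The complex IV medians were 0.25 and 0.20 as deposited. They were 0.11 and 0.02 with scaling outside mitochondrial DNA, and 0.06 and 0.09 with quantile normalisation. In both siRNA pairs, 9 of 12 were above 0 as deposited (75.0%, against 33.2% of all genes). Of the 6 core subunits of complex I, 4 were above 0 with EHMT2 siRNA, and all 6 were below 0 with control siRNA, between -0.26 and -0.01, though 1 turned above 0 with the same-sum scaling or centring on all genes. The medians of all genes were -0.05 with EHMT2 siRNA and -0.02 with control siRNA. Counts above 0 in a single pair have only these medians beside them, not a share of all genes.

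Only COX4I1, COX5B and NDUFS4 had all 3 resistant libraries above all 3 parental libraries (3 of 80, 3.75%, against 2.89% of all genes), and no member had them all below (0.0%, against 2.58%). COX5B, a complex IV subunit that binds zinc, was at 124, 96.6 and 111 FPKM in resistant cells with EHMT2 siRNA, with control siRNA and untransfected, and at 84.8, 70.5 and 78.9 FPKM in parental cells. Its line ratios were 0.54 with EHMT2 siRNA, 0.45 with control siRNA and 0.49 untransfected. NDUFS4, an accessory subunit of complex I known from Leigh syndrome, was at 76.7, 57.4 and 60.2 FPKM in resistant cells and at 55.0, 40.6 and 52.9 FPKM in parental cells, in the same order. COX4I1 had line ratios of 0.70, 0.36 and 0.04 in the same order of treatments, and the control siRNA ratio was -0.01 with quantile normalisation.

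limma over 6 libraries called 0 of 80 members and 0 of 11521 genes for line (0.0%). At an unadjusted p under 0.05 there were 3 members, all higher in resistant cells, COX5B, NDUFA11 and NDUFS4 (3.75%, against 5.23% of all genes), and the lowest adjusted p in limma was 0.870. limma on the 4 siRNA libraries called 4 members higher, against 5.0% of all genes that rose, and 0 lower, against 5.08%. These were COX5B (0.50, SE 0.12, adjusted p of 0.0394 in limma), NDUFS4 (0.48), COX7A2L (0.50) and ATP5MC2 (0.46). For COX7A2L and ATP5MC2 the untransfected pair went the other way, at -0.28 and -0.69. Leaving out any 1 siRNA library gave 0 calls for line, and leaving out either untransfected library gave 3 calls.

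**Figure D3:**
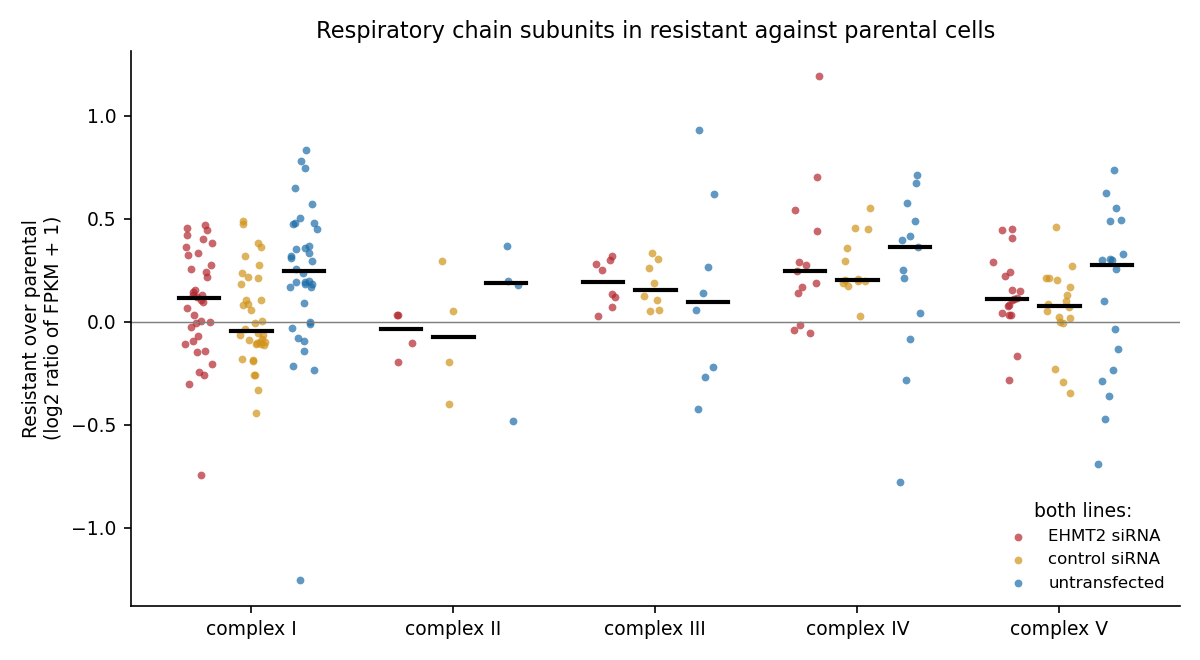
Log2 ratio of FPKM + 1, resistant over parental, for the members of each complex (points) with EHMT2 siRNA, with control siRNA and untransfected; black bars are medians. Untransfected pairs spread most, from -1.26 (NDUFB5) to 0.93 (UQCRQ), and the median of complex III with either siRNA, 0.19 and 0.16 as deposited, turns to -0.03 with control siRNA when scaled outside mitochondrial DNA.

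Some members were past 1.5-fold between the lines in the untransfected pair alone. NDUFB5, a membrane arm subunit of complex I, was at 9.34 FPKM in untransfected resistant cells against 23.7 FPKM in untransfected parental cells, a ratio of -1.26; with EHMT2 siRNA it was at 19.2 against 17.3 FPKM, and with control siRNA at 28.0 against 22.3 FPKM. The untransfected resistant library is thus the lowest of the 6 by a wide margin. ATP5MC2 was at 71.1 against 115 FPKM untransfected, but at 137 against 100 FPKM with EHMT2 siRNA and 186 against 135 FPKM with control siRNA. The opposite pattern was seen for ATP5MF, a membrane subunit of ATP synthase, at 184 against 110 FPKM untransfected, 300 against 279 FPKM with EHMT2 siRNA and 158 against 201 FPKM with control siRNA. UQCRQ, the small ubiquinone-binding subunit of complex III, had ratios of 0.93 untransfected, 0.03 with EHMT2 siRNA and 0.34 with control siRNA.

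The lowest line ratios over both siRNA pairs were those of NDUFC2 (-0.74 with EHMT2 siRNA and -0.33 with control siRNA), SDHA (-0.19 and -0.40) and ATP5MC3 (-0.28 and -0.23). NDUFC2 was at 8.56 against 15.0 FPKM with EHMT2 siRNA, 13.3 against 17.0 FPKM with control siRNA, and 23.3 against 16.4 FPKM untransfected, resistant against parental each time. It is an accessory subunit of the complex I membrane arm and part of the readthrough gene NDUFC2-KCTD14. Ratios in untransfected pairs moved with gene length among members, with a Spearman rho of -0.42 (n = 81) between ratio and exonic bases, beside 0.09 over 11721 genes; the points share both libraries, and the part of length in the ratios was not tested.

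Control siRNA was also set against untransfected cells, 1 library a side. The labels do not say whether the cells called untransfected were mock-transfected. Effects of transfection, culture and library therefore cannot be told apart in these ratios. In resistant cells the median ratio was -0.05, the same as over all genes, with 7 of 80 members higher, against 11.1% of all genes, and 5 lower, against 13.2%. In parental cells it was 0.15, beside 0.04, with 8 of 81 higher, against 6.95%, and 1 lower, against 8.21%. The share of all calls that were higher was 45.7% in resistant cells, or 27.5% with scaling outside mitochondrial DNA, and it was 45.8% in parental cells, 75.0% with the same-sum scaling and 63.4% with scaling outside mitochondrial DNA. In resistant cells the members that were higher included NDUFB5 (28.0 FPKM with control siRNA against 9.34 FPKM untransfected), ATP5MC2 (186 against 71.1 FPKM), ATP5F1A (192 against 108 FPKM) and ATP5F1B (400 against 246 FPKM). All 5 F1 subunits were higher in both lines, from 0.11 to 0.83 in resistant and from 0.15 to 0.33 in parental cells. Only 3 of 5 were above 0 in resistant cells with scaling outside mitochondrial DNA. The share of all genes higher in both lines was not computed for this comparison, so the count cannot be called particular to these subunits. NDUFC2 (13.3 against 23.3 FPKM) and COX6A1 (192 against 318 FPKM) were among the lower in resistant cells. These ratios and those of EHMT2 siRNA share the control siRNA libraries, so a member that is high in a control siRNA library has a lower EHMT2 siRNA ratio and a higher ratio over untransfected cells.

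Summed over the members, nuclear-encoded messages were at 7647, 6404 and 6197 FPKM in resistant cells (EHMT2 siRNA, control siRNA, untransfected) and at 6739, 5908 and 5448 FPKM in parental cells. The order of treatments was the same in both lines, and resistant cells were above parental cells under each treatment. As a share of all FPKM outside mitochondrial DNA, the members took 2.35%, 1.83% and 2.01% in resistant cells and 2.28%, 1.93% and 1.65% in parental cells, in the same order. On that scale EHMT2 siRNA was still the highest of each line, while resistant cells were below parental cells with control siRNA. Summed FPKM of the 13 subunits encoded in mitochondrial DNA were 45817, 37717 and 67623 in resistant cells and 65036, 86569 and 116956 in parental cells. Their ratio to the nuclear-encoded sum was 5.99, 5.89 and 10.9 in resistant cells and 9.65, 14.7 and 21.5 in parental cells, in the same order of treatments, so that it was lower in resistant cells throughout and highest in untransfected cells of each line.

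**Figure D4:**
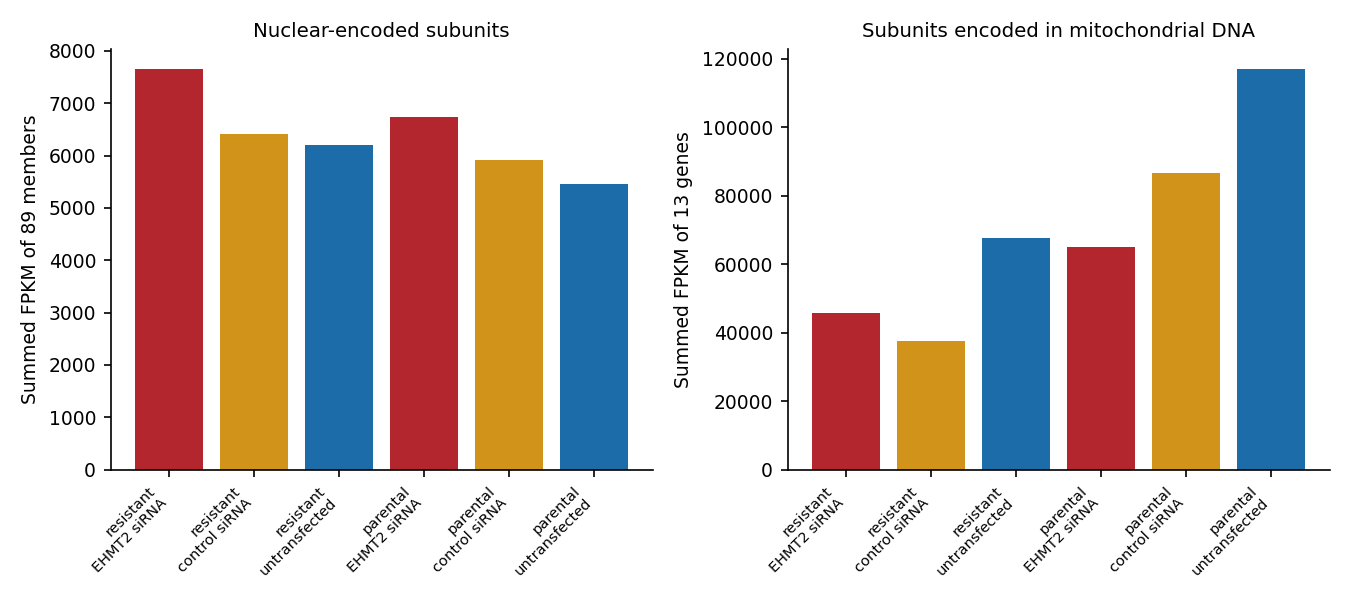
Summed FPKM of the 89 nuclear-encoded members (left) and of the 13 subunits encoded in mitochondrial DNA (right) in each of the 6 libraries, 1 bar a library, both axes from 0. The nuclear-encoded sum is highest with EHMT2 siRNA in both lines (7647 and 6739 FPKM), while the mitochondrial sum is highest in untransfected cells of each line (67623 and 116956 FPKM).

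Other genes of the pathway were taken from lists. Of the 13 subunits encoded in mitochondrial DNA, 0 rose and 0 fell with EHMT2 siRNA in limma on the 4 siRNA libraries, against 24.3% and 19.0% of all genes, and 13 had lower levels in resistant than in parental cells in both siRNA pairs, of which 6 fell (46.2%, against 5.08% of all genes). Their median EHMT2 siRNA ratio was 0.35 in resistant and -0.49 in parental cells, unlike the nuclear-encoded members, whose medians were 0.27 and 0.23. Of 46 assembly factors, proteins that build the complexes without staying in them, 8 rose (17.4%) and 4 fell (8.7%) with EHMT2 siRNA, both shares under those of all genes, with median ratios of 0.08 and -0.02. COA5 (0.84 and 0.73) and COX19 (0.61 and 0.83), both needed for complex IV, had the highest mean ratios, and TTC19, a complex III factor (-1.26 and -0.88), and COX20 (-0.47 and -1.42) the lowest. Of 11 measured regulators of mitochondrial biogenesis, 4 rose (36.4%) and 0 fell. GABPB1, a subunit of GABP, had ratios of 0.77 and 0.77 and the coactivator PPARGC1B 0.52 and 0.67, the highest means, while GABPA, the DNA-binding subunit of GABP, had -0.14 and -0.21 and the nuclear receptor ESRRA -0.40 and -0.0003, the lowest. NRF1 (-0.05 and 0.04) and YY1 (0.45 and 0.41), named here because their motifs were searched, lay between them. PPARGC1A, the coactivator also known as PGC1 alpha, named after its values were seen, was listed at 0 in all 6 libraries.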

How the data were processed

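Total RNA from 6 HCT116 libraries was prepared with TruSeq v2, per the labels' protocols. Build GRCh38 and the tools StringTie 2.1.1, HISAT2 2.2.1, FastQC 0.12.1 and cutadapt 4.9 appear in the submitters' processing notes, which give them no role; the sources used here do not give strand setting or annotation release. The authors deposited FPKM, 1 table of 19957 rows per library; 15 repeated symbols were dropped. The low values show no steps of whole reads, so depth and counting error are unknown.

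Ratios are log2 of FPKM + 1, with 1 added as pseudocount, for genes that reached 1 FPKM in either library of a pair, and calls were 1.5-fold. An additive model of line and treatment was fitted with limma 3.58.1 (R 4.3.3, mean-variance trend, Benjamini-Hochberg over all genes that reached 1 FPKM in 3 or more libraries, threshold 0.05), and checked on simulated data. The p-values set each coefficient against the departure of single libraries from additivity, moderated over all genes. They do not measure the spread between cultures. Coordinates and exonic sharing came from GENCODE 29. Promoters came from RefSeq (GRCh38.p14), using the first listed start of each gene.

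Members and lists were chosen with earlier results of these data known. The 1.5-fold threshold was set knowing them too. The division of members into roles, the promoters shown, the least ratio of 0.25 for opposite directions and the scaling outside mitochondrial DNA were chosen after values were seen. Members named with values are the 5 highest and 5 lowest by mean EHMT2 siRNA ratio, by mean line ratio with siRNA and by the difference between untransfected and control siRNA line ratios, the 4 with the largest difference between lines, core and isoform subunits, and any that passed a test; 1 member that the rule names is not reported here. The titles name resistant cells in more than 1 form, and the libraries were grouped on those names. Alternatives tried were a minimum of 5 FPKM or none, a pseudocount of 0.1, rescaling, centring, quantile normalisation, 2-fold, removal of the length trend or of members sharing 25% or more of exonic bases, no trend, and leaving out each library.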

Additional observations from a re-analysis of the deposited data

Results flagged for a closer look

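Differences between a pair of libraries that ran in opposite directions in the contrasts compared, by 0.25 or more on the log2 scale each, were listed for 10 members. None of these differences was tested, since each value rests on 2 libraries, and the readings share libraries. The rule was run on the members alone. The counts of this section thus have no share of all genes beside them and cannot be called particular to the members. Where a member differed between resistant and parental cells one way without siRNA and the other way with siRNA, ATP5MC2 had line ratios of 0.45 with EHMT2 siRNA, 0.46 with control siRNA and -0.69 untransfected. COX7A2L had 0.44, 0.55 and -0.28 in the same order, and NDUFC2 had -0.74, -0.33 and 0.48.

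With EHMT2 siRNA over control siRNA, the readthrough gene NDUFC2-KCTD14 had a ratio of -1.32 in resistant cells and 1.04 in parental cells. ATP5MF-PTCD1 had -0.76 in resistant cells and 0.56 in parental cells. Both are at under 5 FPKM in all libraries.

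With control siRNA over untransfected, 6 members went opposite ways in the lines. COX7A2L had 0.47 in resistant cells and -0.36 in parental cells, and SDHD had 0.52 and -0.26. NDUFA2 had -0.26 and 0.50, NDUFA3 -0.37 and 0.43, NDUFB6 -0.66 and 0.37, and NDUFS6 -0.41 and 0.55, resistant cells first in each pair.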

How the results depend on the processing

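No paired analysis was possible because each group holds 1 library and the replicate numbers pair nothing; line is already a term of the additive model. Median ratios kept their sign in the EHMT2 siRNA pairs and in the untransfected line pair under every alternative run. Medians that moved by more than 0.16, the median residual SD of members, were those of the untransfected line pair (0.49) and of control siRNA over untransfected in parental cells (0.33) with the same-sum scaling, and, with scaling outside mitochondrial DNA, of the control siRNA line pair (-0.094) and of control siRNA over untransfected in resistant cells (-0.23). Counts at 2-fold, each with the share of all genes, were 2 higher (5.22%) and 3 lower (4.04%) for EHMT2 siRNA in resistant cells and 4 higher (7.48%) and 2 lower (3.51%) in parental cells. For line they were 1 higher (1.54%) and 2 lower (1.55%) with EHMT2 siRNA, 1 higher (1.6%) and 0 lower (0.96%) with control siRNA and 1 higher (3.48%) and 1 lower (3.92%) untransfected. For control siRNA over untransfected they were 2 higher (4.31%) and 0 lower (3.87%) in resistant and 0 higher (0.954%) and 0 lower (2.08%) in parental cells.

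At 1.5-fold, again with the share of all genes under the same scaling, the same-sum scaling gave 22 members higher with EHMT2 siRNA in parental cells (25.7%), 29 higher in the untransfected line pair (22.7%), and 17 higher (14.1%) and 0 lower (4.7%) for control siRNA over untransfected in parental cells. Scaling outside mitochondrial DNA gave 1 higher in the EHMT2 siRNA line pair (3.93%) and 2 lower in the control siRNA line pair (11.3%). For control siRNA over untransfected it gave 4 higher (7.78%) and 9 lower (20.5%) in resistant and 14 higher (10.6%) and 0 lower (6.11%) in parental cells. Centring on all genes gave 8 higher with EHMT2 siRNA in parental cells (16.3%) and 3 lower for control siRNA over untransfected in resistant cells (11.5%).

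In limma, the 4 siRNA libraries alone gave 28 members that rose and 8 that fell with EHMT2 siRNA and 4 higher in resistant cells, and a minimum of 5 FPKM in at least 3 of the 6 libraries gave 1 and 2 with EHMT2 siRNA. Leaving out each library in turn gave 0 to 28 that rose, 0 to 8 that fell and 0 to 3 higher in resistant cells. Reversed were the line coefficient of ATP5MC2 (-0.030 with quantile normalisation, and between -0.119 and 0.456 leaving out each library in turn) and the EHMT2 siRNA coefficient of NDUFB5 (between -0.872 and 0.0013 leaving out each library in turn, the highest without the resistant control siRNA library). The cause of these changes was not tested. With 1 library a group and FPKM without read counts, neither the spread between cultures nor the counting error of a member can be had.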
